A study of Mus musculus with 6 samples.

Results

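The genes described here mark the macrophages that reside in the muscle wall of the gut, the muscularis macrophages. They were chosen by name, as the rows of the 6 count files with the symbols Mrc1, Cd163, Lyve1, Folr2, Cbr2, F13a1, Pf4, Timd4, Cx3cr1 and Adgre1, which are 10 of 46603 gene identifiers. Each symbol matched 1 identifier, and 8 of the 10 had enough counts to be tested (of 15226 genes tested), all but Cd163 and Timd4. Poly(A) RNA came from cultures called enteric glial cells (EGCs), derived from total intestine of C57BL/6J embryos at day 14.5. The digested tissue was grown as neurospheres and then, with serum, on coated plates, and no sorting step is described. The control group (n = 3) received no stimulus and the LPS group (n = 3) received lipopolysaccharide, a component of the bacterial outer membrane, at 100 ng/ml for 12 h. Strain and culture were the same in both groups. The labels do not say whether replicates came from separate litters or cultures, so p-values measure the spread between these samples, which may be technical.

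Muscularis macrophages lie between the muscle layers and along the ganglia of the enteric nervous system. They take up dying cells and debris through scavenger and lectin receptors, and they depend on the growth factor CSF1, which enteric neurons and glia can supply. They are seeded before birth and are in part replaced later by blood monocytes. The study asked how EGCs act on monocytes and macrophages, and the present comparison asks how macrophage transcripts carried in these cultures stood with and without LPS.

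Levels are given as CPM, counts scaled to a library size of 1000000 after a correction for composition. Libraries held 18775316 to 23664312 counts. The floor of detection was set at 3 counts, between 0.124 and 0.167 CPM, and covers counting error only. Glial markers were present in every library, with Sox10 between 73.8 and 101 CPM, but macrophage transcripts were too. All 12 genes of a general macrophage list, which most macrophages express, were above the floor, and their summed level was 4035, 5116 and 11748 CPM in control replicates 1, 2 and 3 and 3568, 4634 and 16634 CPM in LPS replicates 1, 2 and 3. Replicate 3 thus held the highest macrophage signal in both groups. In bulk RNA, fewer cells of a type and less RNA per cell cannot be told apart, so each value is given by library and in a second step relative to this list.

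The start regions of the members were inspected first, as the sequence context of genes whose values differed in direction. RefSeq promoters (GRCm38.p6) were listed for 8 of the 10 members, in 10 entries, and Lyve1 and Adgre1 had none. The 5 that follow are shown, each from 250 bases before to 30 bases after the start site, 5′ to 3′ on the strand of the gene. Mrc1, Cx3cr1 and F13a1 were lower with LPS in every numbered pair of libraries, Pf4 was higher in each of these pairs though its fitted sign depended on single libraries, and Folr2 is shown for the letters of 2 motifs. Capitals mark the letters of a searched motif, on either strand.
Mrc1, chr2:14229164-14229443, plus strand: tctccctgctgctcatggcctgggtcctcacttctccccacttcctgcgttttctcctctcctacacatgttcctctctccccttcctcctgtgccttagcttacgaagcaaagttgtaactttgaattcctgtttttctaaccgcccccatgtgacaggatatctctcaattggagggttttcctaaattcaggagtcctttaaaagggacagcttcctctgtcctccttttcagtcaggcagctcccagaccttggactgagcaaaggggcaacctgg
Cx3cr1, chr9:120068267-120068546, minus strand: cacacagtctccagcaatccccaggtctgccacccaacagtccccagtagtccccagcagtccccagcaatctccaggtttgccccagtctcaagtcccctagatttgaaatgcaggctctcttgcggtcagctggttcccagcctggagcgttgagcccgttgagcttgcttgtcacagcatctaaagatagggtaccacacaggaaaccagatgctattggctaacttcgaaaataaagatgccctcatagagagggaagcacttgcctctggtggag
F13a1, chr13:37049184-37049463, minus strand: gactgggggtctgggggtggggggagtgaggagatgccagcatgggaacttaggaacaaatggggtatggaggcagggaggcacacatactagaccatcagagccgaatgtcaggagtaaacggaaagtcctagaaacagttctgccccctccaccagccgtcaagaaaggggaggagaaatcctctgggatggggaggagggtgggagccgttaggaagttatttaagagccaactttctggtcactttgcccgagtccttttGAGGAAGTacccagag
Pf4, chr5:90772185-90772464, plus strand: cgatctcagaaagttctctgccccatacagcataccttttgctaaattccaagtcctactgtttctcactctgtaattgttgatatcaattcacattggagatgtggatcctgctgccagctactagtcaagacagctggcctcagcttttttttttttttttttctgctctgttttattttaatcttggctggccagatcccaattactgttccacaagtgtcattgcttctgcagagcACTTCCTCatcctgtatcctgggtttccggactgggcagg
Folr2, chr7:101845302-101845581, minus strand: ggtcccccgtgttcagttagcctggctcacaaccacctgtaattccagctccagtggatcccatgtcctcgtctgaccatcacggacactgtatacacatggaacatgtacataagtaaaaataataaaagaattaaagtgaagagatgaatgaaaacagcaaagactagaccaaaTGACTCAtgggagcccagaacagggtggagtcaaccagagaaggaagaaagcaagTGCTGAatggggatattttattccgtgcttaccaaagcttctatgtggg

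Motifs were searched on both strands over 250 bases before to 50 bases after each start. The PU.1 letters GAGGAAGT (PU.1 is the master regulator of macrophage genes) were found in 2 of the 10 entries, with the first base at position 15 of F13a1 and at position -10 of Pf4 (counted from the start site), against 3.2% of all 32851 promoters. Neither gene was called by edgeR with group as the single term, and the sign of Pf4 depended on single libraries. DESeq2 called F13a1 lower (adjusted p = 0.0331), a description, since F13a1 entered the test only through the controls. The MAF half-site TGCTGA (MAF is a regulator of resident macrophages) was found in 4 entries, both of Folr2 and those of Cbr2 and Timd4, against 19.5% of all promoters. The AP-1 letters TGAGTCA were in the Folr2 entry shown, at position -74, against 5.2% of promoters. The NF-kB letters GGGACTTTC (0.353% of all promoters), the STAT letters TTCNNNGAA (8.3%) and the TATA box TATAAA (13.6%) were in none of the 10 entries. A match describes the sequence only, and its absence says only that these letters are not in this window.

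The scavenger and lectin receptors were examined next. Mrc1 (ENSMUSG00000026712; GRCm38 chr2:14229392-14332057, plus strand) encodes the mannose receptor CD206, which takes up glycoproteins. It was at 197, 331.4 and 752 CPM in control replicates 1, 2 and 3 and at 9.29, 10.4 and 131 CPM in LPS replicates 1, 2 and 3. All LPS libraries lay below all control libraries, and replicate 3 was the highest of its group in both. The means were 427 ± 290 and 50.3 ± 70.1 CPM (SD over 3 libraries). The log2 fold change of -3.08 (SE 1.22) was not called with group as the single term (edgeR quasi-likelihood test, adjusted p = 0.145). Within replicate numbers 1, 2 and 3 it was -4.39, -4.99 and -2.52, and with the number as a block Mrc1 was called lower (-3.92, SE 0.56, edgeR adjusted p = 0.0124). Without LPS replicate 3 it was also called (-5.44, edgeR adjusted p = 0.00873), and over its alternatives the adjusted p ran from 4.49e-05 to 0.294. The counts cover 29 merged exons, and the microRNA gene Mir511 in an intron of Mrc1 had no counts in any library.

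The other receptors of this kind were close to or at the floor. Cd163 (ENSMUSG00000008845; chr6:124304656-124330527), the scavenger receptor for haemoglobin bound to haptoglobin, had 0, 1 and 2 counts in control and 1, 0 and 1 counts in LPS replicates 1, 2 and 3. It was thus at the floor in all 6 libraries, and a difference was not detectable at this depth. Lyve1 (ENSMUSG00000030787; chr7:110850607-110863239), a receptor for the matrix sugar hyaluronan that lymphatic endothelium also carries, had 16, 5 and 14 counts in control and 13, 6 and 4 in LPS. The groups overlapped, with means of 0.493 ± 0.240 and 0.395 ± 0.223 CPM (SD over 3 libraries; log2 fold change -0.31, SE 0.58, edgeR adjusted p = 0.760), and without both libraries numbered 3 its sign turned (0.15, edgeR adjusted p = 0.869). Prox1 and Flt4, which lymphatic endothelium expresses, were at 2.03 to 3.64 and 5.74 to 33.9 CPM, and their part in the Lyve1 value was not tested.

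Timd4 (ENSMUSG00000055546; chr11:46810800-46844332) encodes TIM-4, a receptor for phosphatidylserine on dying cells. It had 0, 5 and 3 counts in control and 3, 3 and 65 counts in LPS. Only LPS replicate 3 stood clearly above the floor, at 3.40 CPM, so the gene did not pass the filter and no fold change is given. Of the receptors named, Mrc1 alone was abundant, and Cd163, Lyve1 and Timd4 were each under 1 CPM in at least 5 of 6 libraries.

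Folr2 (ENSMUSG00000032725; chr7:101839988-101857194, minus strand) encodes folate receptor beta, a surface protein of resident macrophages in many tissues. It was at 13.6, 17.4 and 38.4 CPM in control and 4.35, 4.29 and 20.7 CPM in LPS. The groups overlapped because LPS replicate 3 exceeded control replicates 1 and 2, while within each number the LPS library was the lower one, by -1.62, -1.99 and -0.89 on the log2 scale. The log2 fold change of -1.24 (SE 0.75) was not called (edgeR adjusted p = 0.314), whereas it was called with the replicate block (-1.47, SE 0.24, adjusted p = 0.0168) and without LPS replicate 3 (-2.42, adjusted p = 0.0330; range over alternatives 0.000284 to 0.609). Of its 1546 exon bases, 975 overlap the antisense gene Gm10602. Gm10602 itself had 8 to 29 counts per library, against 77 to 928 for Folr2, and the strand setting of the counting is not given in the sources used here.

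Among the enzymes, Cbr2 and F13a1 were both low. Cbr2 (ENSMUSG00000025150; chr11:120729489-120732114, minus strand), a carbonyl reductase used as a marker of resident macrophages, was at 1.53, 2.35 and 3.10 CPM in control and 0.642, 0.167 and 2.51 CPM in LPS. The LPS library was lower within every number, but the groups overlapped through LPS replicate 3. The log2 fold change of -1.06 (SE 0.84, edgeR adjusted p = 0.434) was not called, nor was it with the replicate block (-1.36, SE 0.63, adjusted p = 0.167). Without LPS replicate 3 it was called lower (-2.48, edgeR adjusted p = 0.0470), a description only, since Cbr2 also entered the test through the controls, and over all its alternatives the adjusted p ran from 0.0175 to 0.665.

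F13a1 (ENSMUSG00000039109; chr13:36867178-37050244, minus strand) encodes the catalytic subunit of coagulation factor XIII, a transglutaminase that cross-links fibrin. It had 34, 46 and 108 counts in control and 1, 1 and 17 counts in LPS. All LPS libraries lay below all controls, with LPS replicates 1 and 2 at the floor. The means were 2.65 ± 1.60 and 0.332 ± 0.483 CPM (SD over 3 libraries). With a log2 fold change of -2.97 (SE 1.02), F13a1 was not called (edgeR adjusted p = 0.105). The gene was called lower with the replicate block (-3.24, SE 0.56, edgeR adjusted p = 0.0186), without LPS replicate 3 (-5.52, 0.0135) and by DESeq2 (-2.99, adjusted p = 0.0331), and over all alternatives the adjusted p ran from 0.000586 to 0.256. F13a1 entered the test only through the controls, where it is high, so these calls are descriptions. Its exons share 74 bases with an antisense gene.

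Pf4 (ENSMUSG00000029373; chr5:90772435-90773383, plus strand) encodes the chemokine CXCL4, made by platelets and by some resident macrophages. It was at 1.31, 2.48 and 22.3 CPM in control and 4.35, 6.74 and 25.8 CPM in LPS. In both groups replicate 3 stood apart, 11.7 times the mean of the other controls and 4.64 times that of the other LPS libraries, and the groups overlapped. The log2 fold change was 0.50 (SE 1.19, edgeR adjusted p = 0.816), and 1.01 with the replicate block (SE 0.34, adjusted p = 0.0878), neither called. The sign depended on single libraries, at -0.66 without LPS replicate 3, -0.01 without control replicate 1 and 2.71 without control replicate 3, none of them called. Without both libraries numbered 3, Pf4 was called higher (1.57, edgeR adjusted p = 0.0142; range over alternatives 0.0142 to 0.997). Of 6 platelet and megakaryocyte genes, Gp9 and Gp5 were at the floor everywhere, and the summed level of the list was 5.34 to 7.11 CPM in control and 4.55 to 5.97 CPM in LPS.

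The surface receptors Cx3cr1 and Adgre1 differed in direction. Cx3cr1 (ENSMUSG00000052336; chr9:119901616-120069879, minus strand), the receptor for the membrane-bound chemokine fractalkine, was at 3.14, 7.75 and 48.1 CPM in control and 0.198, 0.167 and 9.53 CPM in LPS. LPS replicates 1 and 2 held only 4 and 3 counts, whereas LPS replicate 3 held 182 counts and exceeded control replicates 1 and 2. The log2 fold change was -2.57 (SE 1.66, edgeR adjusted p = 0.342) and was not called, while the within-number values of -3.47, -4.91 and -2.32 gave a call with the replicate block (-3.16, SE 0.53, adjusted p = 0.0175). Leaving out control replicate 3 moved the fold change to -0.71 (edgeR adjusted p = 0.796) and leaving out LPS replicate 3 to -6.71 (0.0598). The lowest adjusted p over its alternatives was 0.00140, without both libraries numbered 3. Cx3cr1 too entered the test only through the controls, and its calls are descriptions.

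Adgre1 (ENSMUSG00000004730; chr17:57358691-57483527, plus strand) encodes the adhesion receptor F4/80, the classical surface antigen of mouse macrophages. It was at 159, 229 and 472 CPM in control and 952, 1261 and 3700 CPM in LPS, and every LPS library lay above every control. It was the only member called by edgeR with group as the single term (log2 fold change 2.78, SE 0.68, edgeR adjusted p = 0.0452). The values within replicate numbers were close to each other, at 2.58, 2.46 and 2.97, and with the block its SE was 0.12 (log2 fold change 2.67, edgeR adjusted p = 0.000823). The call was lost when control replicate 1 (edgeR adjusted p = 0.138) or 2 (0.169), or LPS replicate 1 (0.0663) or 2 (0.0985), was left out. The adjusted p over all alternatives was 8.7e-05 to 0.169.

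**Figure D1:**
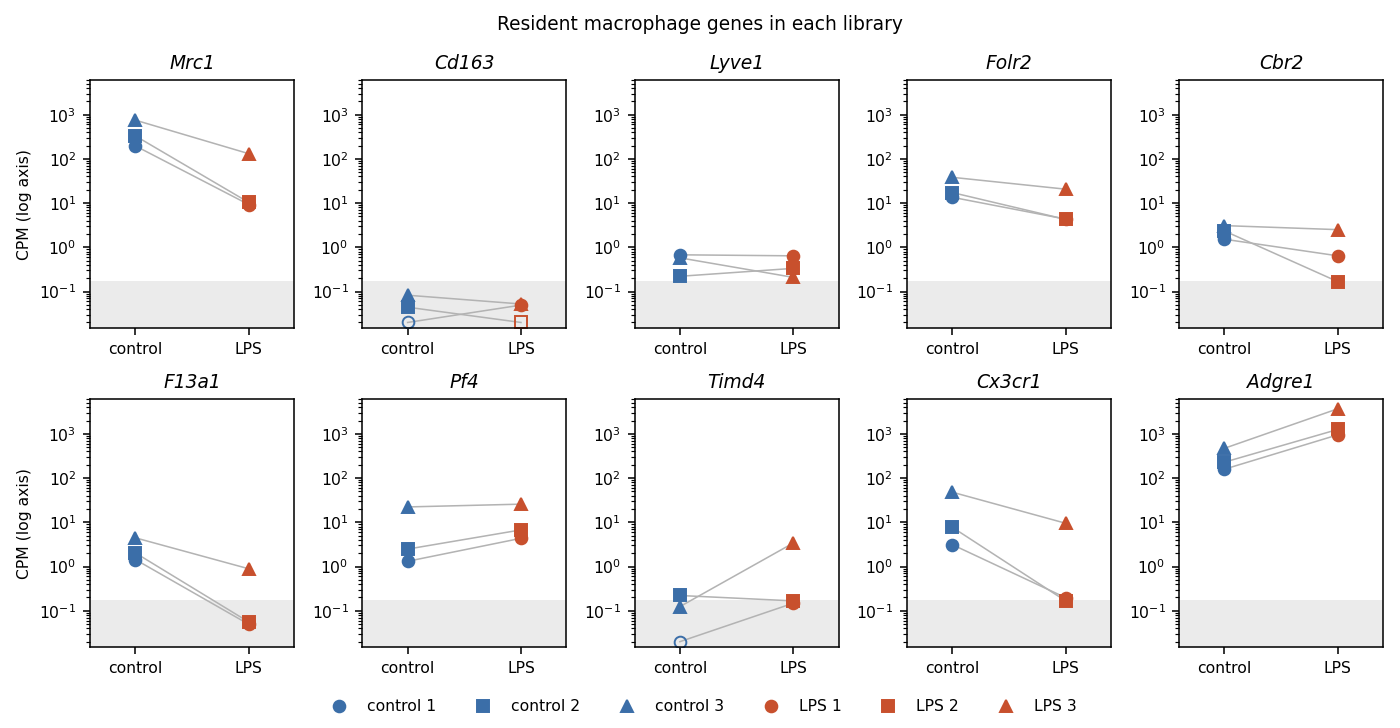
Level of each of the 10 genes in each library, in CPM on a log axis, control on the left and LPS on the right; lines join libraries with the same replicate number, open symbols stand for 0 counts and the grey band reaches up to 0.167 CPM, the highest floor. Adgre1 runs upwards from 159 to 472 CPM in control to 952 to 3700 CPM in LPS, Mrc1 runs downwards from 197 to 752 CPM to 9.29 to 131 CPM, and the triangles of replicate 3 are the highest symbols of their group for most genes.

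Set side by side, the 8 tested members gave 1 call higher (Adgre1) and 0 lower by edgeR with group as the single term. Of all tested genes, 9.09% were called higher and 6.71% lower by this fit. At an unadjusted p under 0.05, 2 members were lower (Mrc1 and F13a1) and 1 higher, against 16% and 16.1% of all tested genes. DESeq2 called 1 lower and 1 higher, against 11% and 13.7%. With the replicate block, 4 members were called lower (Mrc1, Folr2, F13a1 and Cx3cr1) and 1 higher, against 14.9% and 15.4% of all tested genes. F13a1 and Cx3cr1 reached the count level of the filter in 3 control libraries and 1 LPS library, and Cbr2 in 3 and 2, so these 3 entered the test through the controls, where they are high. Their calls, and the counts and medians that include them, are descriptions, and of the 4 called lower with the block only Mrc1 and Folr2 are free of this limit. Without LPS replicate 3 it was 4 lower (Mrc1, Folr2, Cbr2 and F13a1), against 9.13%. Without both libraries numbered 3, an alternative added after the values had been seen, 5 were called lower and 2 higher (Adgre1 and Pf4), against 20.4% and 22.6%.

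In CPM, Mrc1 and F13a1 did not overlap between groups on the lower side and Adgre1 on the higher side, against 19.4% and 19.3% of all tested genes. Within every replicate number, 5 members were lower with LPS (Mrc1, Folr2, Cbr2, F13a1 and Cx3cr1) and 2 were higher (Adgre1 and Pf4), against 34.6% and 31% of all tested genes. The median log2 fold change of the 8 tested members was -1.15, against -0.02 over all tested genes.

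**Figure D2:**
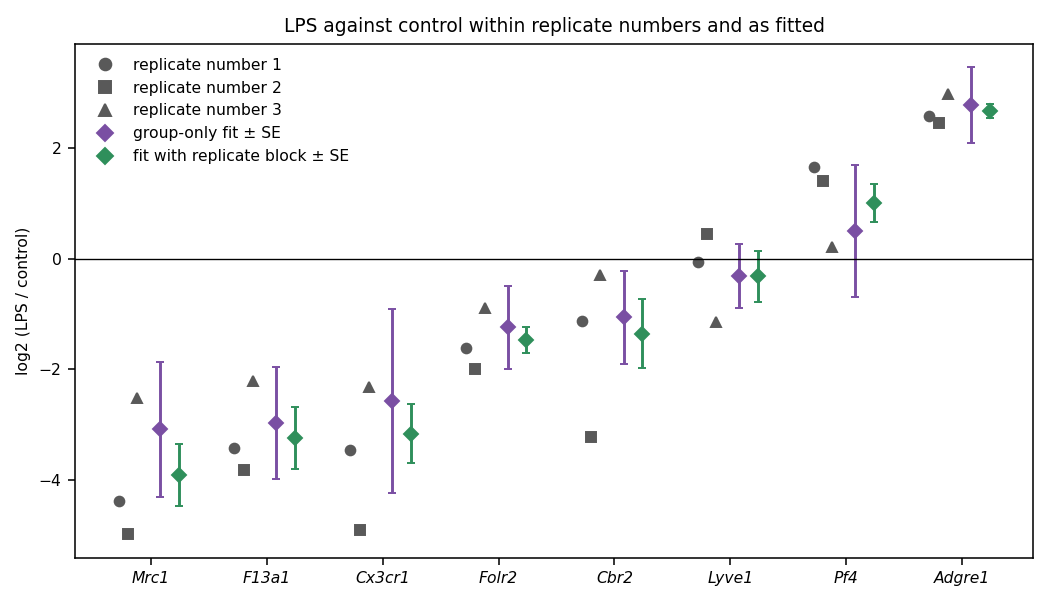
Log2 of LPS over control for the 8 tested genes: grey symbols are the differences within replicate numbers 1, 2 and 3, and diamonds with bars are fitted values ± SE with group only (purple) and with the replicate number as a block (green). For Mrc1 the SE shrinks from 1.22 to 0.56 and for Adgre1 from 0.68 to 0.12 once the number is a block, and Lyve1 has grey symbols on both sides of 0.

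The spread between replicates was then described. In controls, replicate 3 was the highest library for 7 of the 8 tested members, all but Lyve1, against 42.7% of all tested genes. Relative to the mean of the other controls it was 2.85 times as high for Mrc1, 2.57 for F13a1, 2.48 for Folr2 and 2.43 for Adgre1, which lay close together. Pf4 and Cx3cr1 stood apart from these with 11.7 and 8.84 times. In LPS, replicate 3 was again the highest for 7 of the 8, against 44.1% of all tested genes, but the ratios were more uneven, from 3.34 for Adgre1 and 4.79 for Folr2 to 13.4 for Mrc1, 16.9 for F13a1 and 52.2 for Cx3cr1. The median ratio of the 8 members was 2.52 in control and 5.50 in LPS, against 0.997 and 1.00 over all tested genes.

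Each member was then expressed relative to the mean log2 CPM of the 12 general macrophage genes in the same library. That mean was 6.62, 7.11 and 8.29 in control and 6.86, 7.23 and 9.03 in LPS. The list may itself respond to LPS, so the scale is relative and gives no absolute level per cell. In controls, 4 of the 8 tested members varied little on this scale: the SD over the 3 libraries was 0.15 for Mrc1, 0.093 for Folr2, 0.054 for F13a1 and 0.072 for Adgre1 on the log2 scale, where it had been 0.97, 0.78, 0.81 and 0.80 for log2 CPM. For Pf4 and Cx3cr1 it went from 2.10 and 1.99 for log2 CPM to 1.24 and 1.13. For Cbr2 it was 0.49 and 0.43, and for Lyve1 it was larger on the relative scale, 1.06 against 0.70. Mrc1, Folr2, F13a1 and Adgre1 thus kept nearly the same proportion to the list in every control library, and Pf4, Cx3cr1, Cbr2 and Lyve1 varied beyond it.

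On this relative scale, 5 of the 8 tested members were lower in LPS with no overlap between the groups (4.32% of all tested genes) and 1 was higher (3.14%). In CPM, 19.4% and 19.3% of all tested genes did not overlap. Subtracting the list adds its spread between libraries to genes that do not follow it. The shares of 4.32% and 3.14% are therefore not a like background for members that follow the list. The 5 include F13a1, Cx3cr1 and Cbr2, which entered the tested set through the controls, so the count is a description. Mrc1 went from 1.18 ± 0.15 to -3.16 ± 1.01, a difference of -4.34. Cx3cr1 differed by -3.94 and F13a1 by -3.53. Folr2 and Cbr2 differed by -1.87 and -1.92, about equally, although Folr2 varied far less within LPS (SD 0.24 and 0.99). Adgre1 went from 0.68 ± 0.072 to 2.97 ± 0.14, a difference of 2.30 (SD over 3 libraries). Each of these 6 had p = 0.1 in the exact two-sided permutation test over the 6 libraries, the smallest that 3 against 3 allows, so none can pass 0.05. Pf4 (0.72, exact p = 0.4) and Lyve1 (-0.63, exact p = 0.8) overlapped between the groups. The count of 5 was the same with the summed CPM of the list as the reference, without Lyz2 and Cd68 in it and with a prior count of 0.5.

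**Figure D3:**
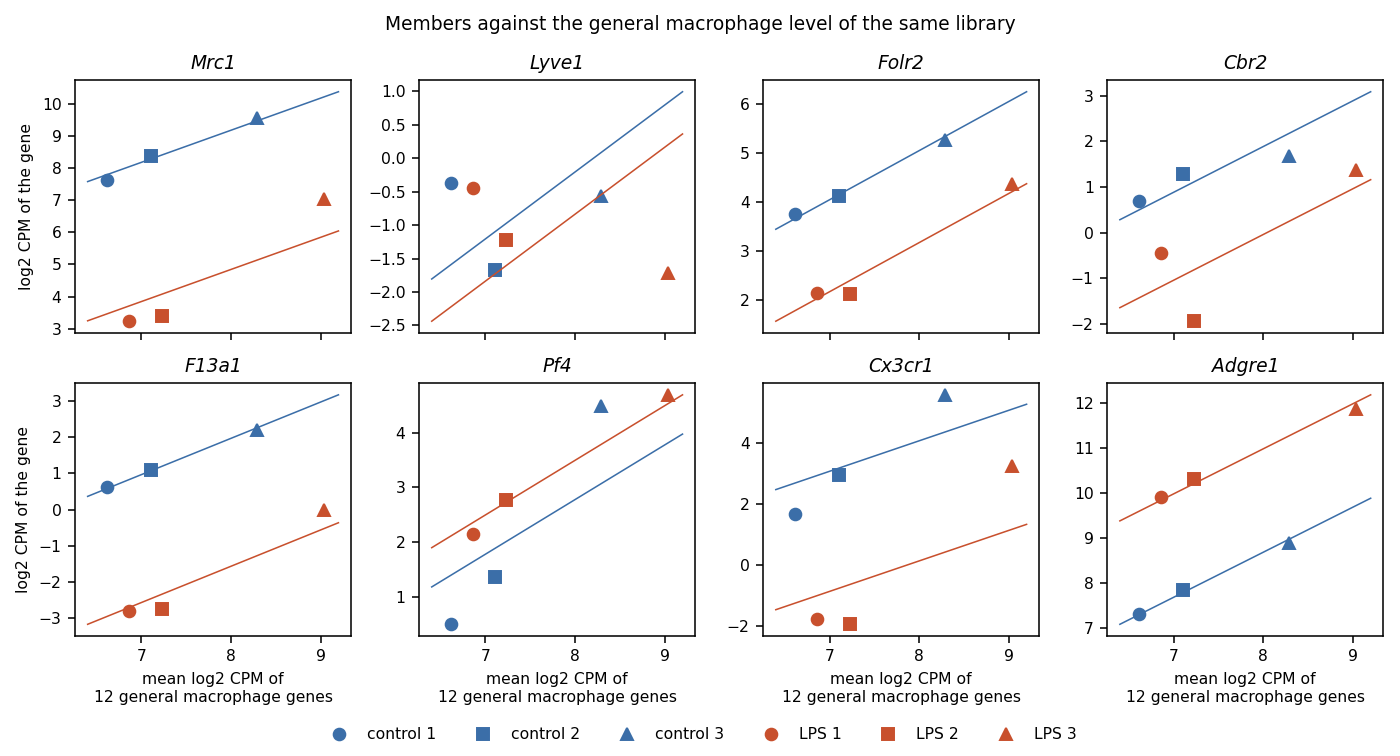
Log2 CPM of each tested gene against the mean log2 CPM of the 12 general macrophage genes in the same library; lines have a slope of 1 and pass through the mean of the control (blue) and LPS (red) libraries. Control libraries lie on the line for Folr2, F13a1 and Adgre1 (SD around it 0.093, 0.054 and 0.072), and the LPS line differs from the control line by 2.30 for Adgre1 and by -4.34 for Mrc1.

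Levels of different genes were compared per kilobase of merged exon. In control, Adgre1 (88.6 ± 50.7 CPM per kb) and Mrc1 (67.0 ± 45.5) led, in this order in each library though their ranges overlapped. Mrc1 lay above Folr2 (14.9 ± 8.64) without overlap, followed by Pf4 (12.1 ± 16.3), Cx3cr1 (4.36 ± 5.49) and Cbr2 (1.75 ± 0.593), each overlapping the gene before it. F13a1 (0.393 ± 0.238) was below Cbr2 without overlap, and Lyve1, Timd4 and Cd163 came last at 0.169, 0.0530 and 0.00775 CPM per kb. In LPS, Adgre1 stood at 609 ± 465 CPM per kb, without overlap above Pf4 (17.0 ± 16.3), Mrc1 (7.90 ± 11.0) and Folr2 (6.32 ± 6.11). The other 6 members were under 1 CPM per kb on average (SD, n = 3 throughout). Mrc1 followed Adgre1 directly in control, whereas in LPS it came after Pf4 and overlapped with Pf4 and Folr2.

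The members also differed in which other genes followed the same course over the 6 libraries. Likeness was measured as the root mean square (RMS) difference between log2 CPM profiles, each centred on its own mean, among tested genes with at least 5 CPM. Adgre1 was closest to Lst1 (RMS 0.0865), Tlr1 (0.196), a receptor for bacterial lipopeptides, and Igsf6 (0.210). Cd84 (0.126) and Hhex (0.140) were among the 3 genes closest to Folr2. F13a1 was closest to Trem2 (0.121), a lipid-sensing receptor of macrophages, Slc9a9 (0.126) and Abcg3 (0.180). For Mrc1 the nearest were Cxcr4 (0.486), Abcg3 (0.532) and Trem2 (0.547).

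For Cx3cr1 the nearest genes were Mrc1 (0.780), Nxpe5 (0.822) and Fcrls (0.828), for Pf4 Sema7a (0.555), Itgam (0.590) and Vav1 (0.624), for Cbr2 Star (0.369), Pgr (0.377) and Hhex (0.467), and for Lyve1 Raet1d (0.395), Kif18b (0.399) and Trim47 (0.402). Between members, Folr2 and Cbr2 (0.494), Mrc1 and F13a1 (0.533) and Mrc1 and Cx3cr1 (0.780) were nearest, and Mrc1 and Adgre1 were 3.38 apart. Profiles share libraries and depth, so these distances are descriptions.

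A longer list of 26 other genes of resident macrophages was examined, of which 22 were above the floor in at least 1 library and 20 were tested. Of these, 5 were called lower (Igf1, Gas6, Ltc4s, Cd5l and Gpr34) and 2 higher (Cd209f and Cd209g), where 6.71% and 9.09% of all tested genes were called. The 2 of 20 called higher are near that share. The median log2 fold change was -1.01, against -0.02 over all tested genes. Gpr34 entered the test only through the controls and Cd209f and Cd209g only through LPS, the group in which each was high, so their calls and the median are descriptions. Selenop, a selenium carrier protein and the most abundant of the list, was at 902, 1135 and 1629 CPM in control and 267, 273 and 758 CPM in LPS, which did not overlap but was not called (log2 fold change -1.50, SE 0.49, edgeR adjusted p = 0.0926). With the replicate block Selenop was called lower (-1.64, edgeR adjusted p = 0.00834). Stab1, the scavenger receptor stabilin, overlapped between groups (689 ± 487 and 302 ± 374 CPM, edgeR adjusted p = 0.473) and was called lower with the block (-1.75, edgeR adjusted p = 0.0263).

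Gas6, which bridges dying cells to the receptor MERTK, was called lower, with means of 647 ± 38.2 and 201 ± 39.9 CPM (SD over 3 libraries) and a log2 fold change of -1.69 (edgeR adjusted p = 0.00269). Replicate 3 of Gas6 did not stand out in either group. Igf1 was at 221, 262 and 355 CPM in control and 94.8, 85.7 and 111 CPM in LPS. It rose less in replicate 3 than the summed general macrophage list did. Cd5l was at 105, 79.6 and 110 CPM in control and 9.74, 8.08 and 25.2 CPM in LPS. Whether the transcripts of Gas6, Igf1 and Cd5l came from macrophages was not tested. Gpr34, a lysophosphatidylserine receptor, had 229 counts over the control libraries and 2 over the LPS libraries, an LPS to control ratio of 0.0107 (95% interval 0.00129 to 0.0392, counting error only; edgeR adjusted p = 0.0256). Cd209f and Cd209g, lectins of the DC-SIGN family, had no count in control and 271 and 93 counts in LPS, at least 37.6-fold and 12.97-fold higher against the group mean of the floor (edgeR adjusted p = 0.0236 and 0.0368). In LPS replicates 1, 2 and 3, Cd209f had 85, 152 and 34 counts and Cd209g had 26, 55 and 12. Both were thus lowest in LPS replicate 3, which had the highest summed level of the general macrophage list. Genes of the Cd209 family resemble each other, so the split of reads among them is uncertain.

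In the blocked fit, 10 of these 20 genes were called lower and 2 higher, against 14.9% and 15.4% of all tested genes. Trem2 was among those called lower (edgeR adjusted p = 0.00491), and the complement genes C1qa, C1qb and C1qc were not (0.234, 0.114 and 0.0650). C1qa was at 125, 200 and 645 CPM in control and 80.9, 108 and 762 CPM in LPS. Cd209d, Mgl2, Vsig4 and Ccl24 were at the floor in every library. Over the 6 fits without one library, 2 to 9 genes of this list were called lower and 0 to 2 higher. The 9 were called without LPS replicate 3, where 9.13% of all tested genes were lower. Calls over all tested genes, in either direction, ran from 491 of 15564 to 3390 of 15626 over the same fits. Gas6 and Igf1 were called in all 6 of these fits, Gpr34 in 2 (lost without control replicate 2 or any LPS replicate, edgeR adjusted p up to 0.103), Cd5l in 2 and Ltc4s in 0. Cd209f was called in 2 and Cd209g in 1, both lost without control replicate 1 or 2 or LPS replicate 1 or 2.

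The general macrophage list gave 0 calls in either direction with group as the single term by edgeR, 1 higher (Aif1) and 0 lower at an unadjusted p under 0.05, and 0 by DESeq2. Its median log2 fold change was 0.48. Lyz2, encoding lysozyme, was by far the most abundant, at 2888, 3490 and 7978 CPM in control and 2385, 3069 and 11480 CPM in LPS. With the block, Ptprc, Fcer1g, Itgb2 and Aif1 were called higher and Tyrobp, Laptm5 and Cd68 lower, 4 and 3 of 12 against 15.4% and 14.9% of all tested genes. The relative values above rest on the mean of the list.

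Monocyte genes were looked at because monocytes can give rise to these macrophages. Ly6c2, which marks classical monocytes, had no count in 5 libraries and was at 0.942 CPM in LPS replicate 3, Ccr2 was at most at 0.868 CPM, and Chil3 was at the floor throughout. Of the 3 monocyte genes tested, Plac8 and F10 were called higher (log2 fold change 1.32 and 3.80, edgeR adjusted p = 0.0122 and 0.00176), where 9.09% of all tested genes were. With the block Vcan was called higher as well (0.59, edgeR adjusted p = 0.0160), 3 of 3 against 15.4%. F10 had 4 to 5 counts in control and 42 to 61 in LPS and entered the test only through the LPS libraries, so its call is a description. The call for Plac8 was lost without control replicate 1 or LPS replicate 2 (highest edgeR adjusted p 0.0569). Plac8 and Vcan, the most abundant of the list, were no higher in replicate 3 than in the others: Plac8 was at 55.7, 64.1 and 37.6 CPM in control and 134, 136 and 124 CPM in LPS.

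The ligands and partner molecules of the members were compared in the same way, together with ligands of the receptor CSF1R such as Csf1. CSF1R is not a member and belongs to the general macrophage list. Of 7 tested genes, 4 were called higher and 0 lower by edgeR, where 9.09% and 6.71% of all tested genes were called. At an unadjusted p under 0.05 and by DESeq2, 6 were higher and 0 lower, where 16.1% and 13.7% of all tested genes were higher. Hp, which encodes haptoglobin, part of the complex that CD163 binds, rose by 3.76 on the log2 scale (edgeR adjusted p = 0.00322), with means of 8.75 ± 2.96 and 118 ± 37.6 CPM (SD over 3 libraries). Hmox1, the haem-degrading enzyme that acts after that uptake, rose by 1.61 (edgeR adjusted p = 0.0162; means 329 ± 126 and 1004 ± 65.3 CPM), and Adam17, a protease that sheds CX3CL1 among other surface proteins, by 1.07 (0.0104). Hp was called in all 6 fits without one library, Adam17 in 5 (lost without control replicate 2, edgeR adjusted p = 0.0659) and Hmox1 in 2 (lost without control replicate 1 or 2 or LPS replicate 1 or 2, up to 0.0788).

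Csf1, the growth factor of macrophages, rose by 1.92 on the log2 scale (edgeR adjusted p = 0.0304), at 450, 425 and 456 CPM in control and 2266, 2025 and 760.3 CPM in LPS. Its call was kept only in the fit without LPS replicate 3 (highest edgeR adjusted p 0.130 in the other 5 fits). Cx3cl1, the ligand of CX3CR1, was at 23.3, 20.9 and 41.6 CPM in control and 203, 193 and 33.3 CPM in LPS and was not called (log2 fold change 2.32, edgeR adjusted p = 0.0779). LPS replicate 3, with the highest summed level of the general macrophage list, had the lowest Csf1 and Cx3cl1 of the LPS libraries. Of the hyaluronan synthases, Has2 was the only one tested (log2 fold change 0.62, edgeR adjusted p = 0.0927).

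Markers of other cells that can carry these genes were examined last. Flt3 and Xcr1 (dendritic cells), Epx and Prg2 (eosinophils) and Cpa3, Mcpt4 and Fcer1a (mast cells) were at the floor in all 6 libraries. Other genes of these lists were above it. Zbtb46, expressed by dendritic cells and endothelium, was at 10.5 ± 0.136 CPM in control and at 6.84 ± 0.647 CPM in LPS and was called lower (log2 fold change -0.62, edgeR adjusted p = 0.0265). Among the 6 fits without one library, only that without LPS replicate 3 called Zbtb46. Ccr3, the eotaxin receptor, was at 1.48, 2.12 and 3.31 CPM in control and 0.840, 0.557 and 5.39 CPM in LPS, and Siglecf had 3, 0 and 3 counts in control and 11, 13 and 9 in LPS. The summed level of 6 endothelial markers was 25.5 to 28.7 CPM in control and 31.6 to 44.8 CPM in LPS. Flt4 made up most of the difference, with means of 10.9 and 24.6 CPM, while the means of Kdr (10.7 and 7.78 CPM), Prox1 (3.06 and 2.60 CPM) and Tek (0.660 and 0.316 CPM) were lower in LPS. None was called with group as the single term by edgeR, at an unadjusted p under 0.05 or by DESeq2, and the block called Flt4, Pecam1 and Cdh5 higher (edgeR adjusted p = 0.0160, 0.0246 and 0.0306), 3 of 5 tested against 15.4% of all tested genes. Cdh5 entered the test only through the LPS libraries, where it is high, so its call is a description. Among the glial markers, S100b was called lower (log2 fold change -1.91, edgeR adjusted p = 0.0238, lost without control replicate 1 or 2 or LPS replicate 1 or 2), and Sox10, Erbb3, Foxd3 and Gfap were not called.

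**Figure D4:**
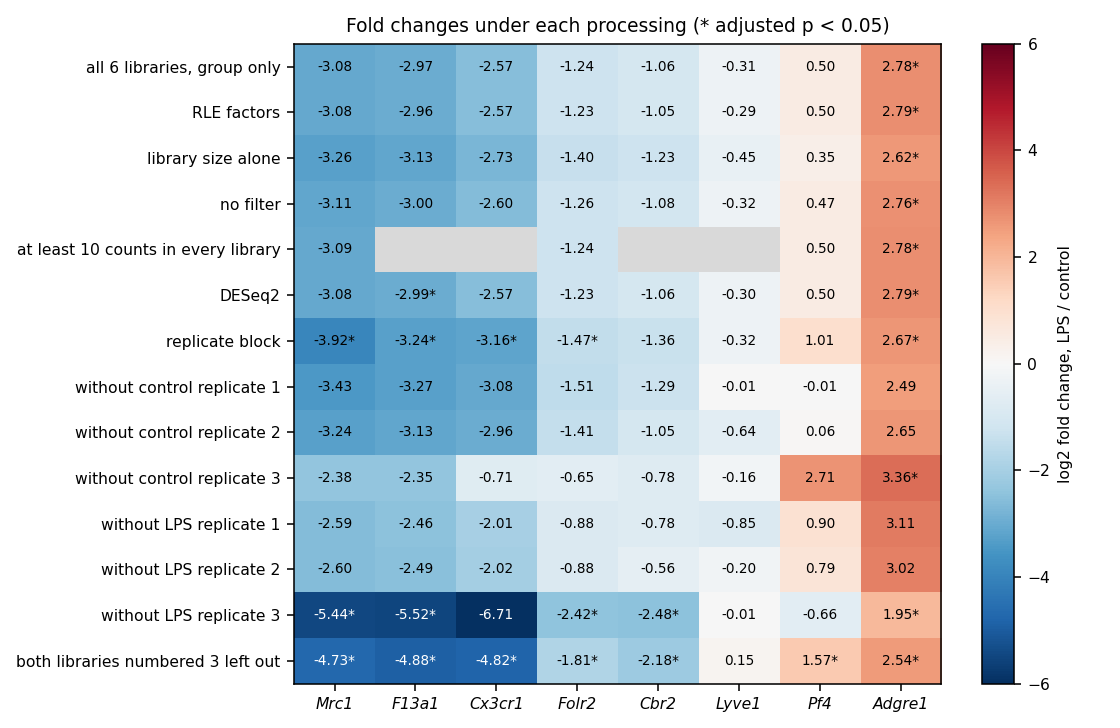
Log2 fold change of LPS over control for the 8 tested genes (columns) under each processing (lines of the grid); blue is lower and red higher in LPS, an asterisk marks an adjusted p under 0.05 and grey fields were not tested under that filter. Adgre1 is positive in every line, from 1.95 to 3.36, Mrc1, F13a1, Cx3cr1, Folr2 and Cbr2 are negative in every line where tested, and Pf4 and Lyve1 change sign.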

How the data were processed

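The authors deposited unnormalized counts for each gene of 6 libraries, made from poly(A) RNA with a stranded kit. Per the labels, reads were trimmed (cutadapt 1.15), freed of contaminants (Bowtie2 2.3.3.1) and aligned to GRCm38 with STAR 2.5.2b. SAMtools 1.5 and featureCounts 1.5.3 are also listed in the submitters' processing notes. Strand setting and treatment of reads with several alignments are not given in the sources used here.

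Low counts were filtered with filterByExpr (edgeR; minimum count 10, total 15), and 15226 genes remained. LPS and control were compared, two-sided, with the quasi-likelihood F-test of edgeR 4.0.16 (R 4.3.3), TMM factors (0.917 to 1.08) and Benjamini-Hochberg adjustment over all tested genes. Calls were made at adjusted p-values under 0.05. As SE, the absolute log2 fold change over the square root of F is given. Log2 CPM used a prior count of 2. Exon lengths and coordinates are from GENCODE M21. Both fits were run on simulated counts that held no difference between replicate numbers, so that run says nothing about the pairing used by the block.

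Replicate numbers are shared by the groups, but the labels do not say what they stand for. Deviations from the group means correlated with r = 0.513, 0.334 and 0.613 between same-numbered libraries, so the numbers were taken to pair them. LPS replicate 2 correlated more with control replicate 1 (0.419), so the check mainly separates number 3 from the others.

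The members, lists and tests were chosen with earlier results of these data known. Named are all members, the 3 genes nearest in profile to each tested member and, of other lists, the most abundant and the most changed. Igf1, Cd5l, Ltc4s, Trem2, C1qa, C1qb, C1qc, Cx3cl1, Has2 and markers of other cell types were named in addition, after their values were seen. Selenop was found under its older symbol. Alternatives were other scaling, other filters, DESeq2 1.42.0, the replicate block, other references and each library left out. The table of the whole series held the same counts and was not used. Some genes that entered the tests, lists and counts are not reported here by name.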

Additional observations from a re-analysis of the deposited data

How the results depend on the processing

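Adgre1 was the 1 member called higher with all 6 libraries. Over the fits without one library the members called higher numbered 0 to 1 and those called lower 0 to 4. With the replicate block 4 members were lower, with DESeq2 1, and without both libraries numbered 3 (chosen after seeing the data) 5 were lower and 2 higher. Of all genes tested, 2406 were called with all libraries, 3752 by DESeq2, 4616 with the replicate block, 6657 without both libraries numbered 3 and 491 to 3390 without one library. Of the other resident macrophage genes, 10 were lower with the block and 15 without both libraries numbered 3. In these fits, 14.9% and 20.4% of all tested genes were lower. Without one library, 2 to 9 genes of this list were lower and 0 to 2 higher, and 0 were higher among genes with at least 10 counts in every library. Of the general macrophage genes, the block gave 4 higher and 3 lower, and leaving out both libraries numbered 3 gave 3 higher and 3 lower. The block called 15.4% of all tested genes higher and 14.9% lower, and leaving out both libraries numbered 3 called 22.6% and 20.4%. Directions turned for Pf4, which ran from -0.66 to 2.71 without one library (-0.01 without control replicate 1), and for Lyve1 (0.15 without both libraries numbered 3). The replicate block changed the call of Mrc1, Folr2, F13a1 and Cx3cr1 and of no other tested member. Library size alone as the scale moved the median of all genes from -0.02 to -0.18 and changed no call of a member. Requiring 10 or more counts in each library leaves no value for F13a1, Cx3cr1, Cbr2 and Lyve1. Under 20 counts in a library, as for Lyve1 throughout and F13a1 in LPS, depth limits what can be seen. The cause of these shifts was not tested.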
